A study of Mus musculus with 25 samples.

Results

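The 64 probes described here took a larger share of the counts of CD45+CD68+ segments than of the neighbouring non-immune segments of mouse lung in each of 3 classes of tissue region. They were taken from 20175 probes by their levels in these same segments. For each probe, counts were pooled over the segments of a compartment and region class, scaled to CPM (counts per 1e+06 counts) and expressed as v, the log2 of CPM plus 20. The smallest of the 3 class differences in v, CD68 minus non-immune, is called m. Probes with at least 60 counts over all CD68 segments were eligible (1882 of 20175), and up to 100 of them with an m of at least 0.7 were kept, a threshold that only 64 reached. A large difference between the compartments is therefore how the probes were chosen and not a finding, and it is given as a description without a test.

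Macrophages take up particles, dying cells and surplus surfactant in the alveoli and interstitium of the lung, and their number and state change when the alveolar epithelium is damaged. CD68 is a glycoprotein of late endosomes and lysosomes, abundant in macrophages and also present in monocytes and other phagocytic cells, while CD45 marks cells of the blood lineage.

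All segments came from paraffin sections of 2 male SP-C I73T mice, which carry a surfactant protein C mutation whose expression in alveolar type II cells is switched on by tamoxifen. The labels give 1 gavage of 175 mg/kg tamoxifen in corn oil and sacrifice on day 14 for the injured mouse, and day 0 for the control mouse, which the sample labels call untreated and the series description calls oil treated. The methods of the study describe another dosing, with more than 1 gavage. The control lung gave the healthy regions (1, 3 and 13). The lung of the injured mouse gave peri-injured regions (6, 9, 10 and 12) and injured regions (4, 5, 7, 8 and 11), as judged by histopathology. The study describes peri-injured regions 6 and 10 as relatively close to the injury and 9 and 12 as distal. They are taken as 1 class here, so a change on leaving out one of them may reflect this difference in position, which was not tested. Each of the 12 regions gave a CD45+CD68+ segment (called CD68 below) and a segment that was positive for DNA and negative for CD45 (non-immune). For region 4 the tissue number in the segment annotation is that of the control mouse although its treatment is tamoxifen, so every comparison between classes was also made without this region.

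The CD68 segments held 21955 to 119493 deduplicated counts, and the non-immune segments held 80259 to 671249. A class is represented by 1 mouse, and peri-injured and injured regions share the same mouse. Regions of a class are therefore not animals, every p-value over regions is too small for a statement about mice, and healthy against the other classes cannot be told apart from a difference between the mice. The files do not pair probe identifiers with gene symbols, so that the transcripts are not named, no sequence is shown and the macrophage markers of the CD68 segments could not be checked. Probes are named by identifier where few are singled out and otherwise by their rank in m. In bulk segments, fewer cells of a type and less RNA per cell cannot be told apart.

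The size of m among the 64 probes ran from 0.70 to 2.95, with a median of 0.98. The median class difference in v was 1.12 in healthy, 2.35 in peri-injured and 1.19 in injured regions, beside 0.12, 0.14 and 0.02 over the 1882 eligible probes. As a plain ratio of pooled CPM, the median probe was 2.68 times as abundant in CD68 as in non-immune segments of healthy regions, 6.54 times in peri-injured and 2.98 times in injured regions. The pooled CPM of 50 of the 64 probes was more than 2 times as high in CD68 segments in each of the 3 classes. The widest of the 3 differences lay in the peri-injured class for 57 probes, in the injured class for 4 and in the healthy class for 3. The narrowest, which sets m, lay in the healthy class for 40, in the injured class for 23 and in the peri-injured class for 1. Just inside the threshold, ranks 62, 63 and 64 had an m of 0.713, 0.705 and 0.705, and just outside it the next 3 probes had 0.688, 0.682 and 0.676, so no gap in the values separates the list from the probes that follow.

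**Figure D1:**
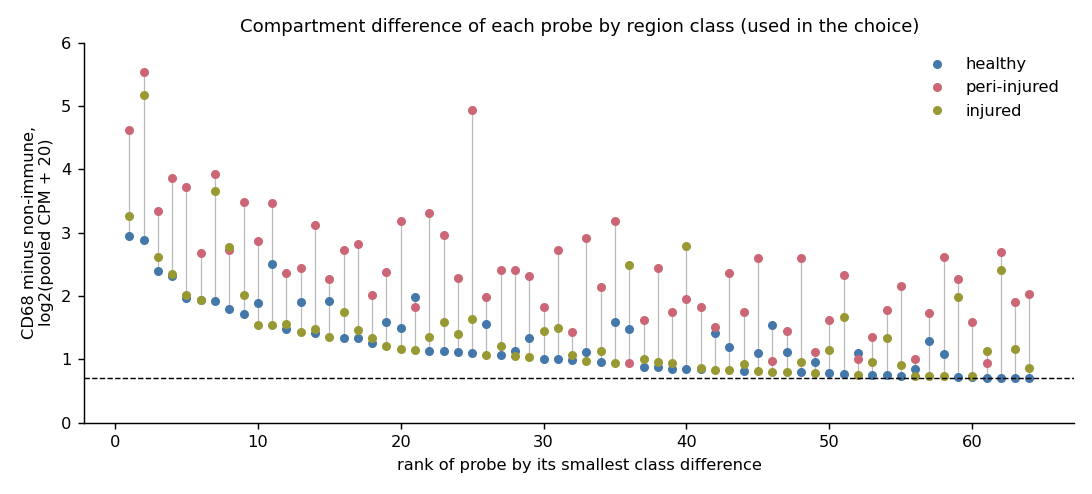
Each of the 64 probes is placed on the x axis by its rank in m, and the y axis gives its CD68 minus non-immune difference in log2(pooled CPM + 20) for healthy, peri-injured and injured regions (coloured points joined by a grey line). The dashed line is the threshold of 0.7 used in the choice, and for 57 of the 64 probes the peri-injured point is the highest.

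Every one of the 64 probes was among the 6000 most abundant of the CD68 segments, and 61 were among the top 1000, with a median abundance rank of 287.5. A place among the 6000 followed from the minimum of counts, since all 1882 eligible probes had one. A high CD68 rank beside a lower non-immune rank goes with how the probes were chosen. In the non-immune segments, 36 of them reached the top 6000 and the median rank was 5613.5. Their pooled level in CD68 segments ran from 79.0 to 3254 CPM (median 222) and in non-immune segments from 9.55 to 623 CPM (median 51.1). In non-immune segments, 15 of the 64 lay below the level of the median probe of the assay, which was 37.3 CPM there. Of the 64, 60 had a count in all 12 CD68 segments and 59 in all 12 non-immune segments, beside 22.0% and 90.7% of all 20175 probes, and 79.6% of the eligible probes had a count in all 12 CD68 segments. None of the 64 was missing from more than 1 segment of a compartment. The reaction without tissue held 1 count in all and 0 counts for the 64 probes.

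A positive difference in each class, pooled over its regions, does not make a probe higher in each single region. By CPM, 35 of the 64 were higher in the CD68 segment in all 12 regions, 25 in 11 regions, 3 in 10 and 1 in 9. Over the eligible probes, 2.82% were higher in all 12 regions. The name of the list, probes higher in CD68 segments everywhere, thus held for all regions singly in 35 of 64 probes. The count is sensitive to depth, since with every segment thinned to 21955 counts only 12 of the 64 were higher in all 12 regions. By region, 57 (injured region 8) to 64 of the 64 probes were higher in the CD68 segment, and all 64 were so in 4 regions, of which 6, 10 and 12 were peri-injured and 11 was injured. The most uneven probe, rank 53, was higher in 9 of 12 regions, with 0 counts in the CD68 segment of region 9 and 9 in its non-immune segment, and with 33.5 against 34.3 CPM in region 5 and 69.7 against 78.4 CPM in region 8. It had 16 counts or fewer in each CD68 segment, so that its differences in single regions rest on few counts.

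To measure the compartment difference in segments that had no part in the choice, the rule was applied 12 times to 11 regions, and the probes chosen were read in the region left out. The lists held 54 to 67 probes, of which 52 to 64 were among the 64. In the region left out, 83.6% (region 8) to 100% (regions 6, 10 and 12) of the chosen probes were higher in the CD68 segment, with a median of 94.4% over the 12 regions. Over the eligible probes, the same share was 42.4% to 57.9%. The median difference of the chosen probes in v was lowest in region 4 (0.67) and highest in region 6 (2.50). The region left out comes from the same mouse as other regions of its class, so that this is a description over regions of 1 mouse per class.

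**Figure D2:**
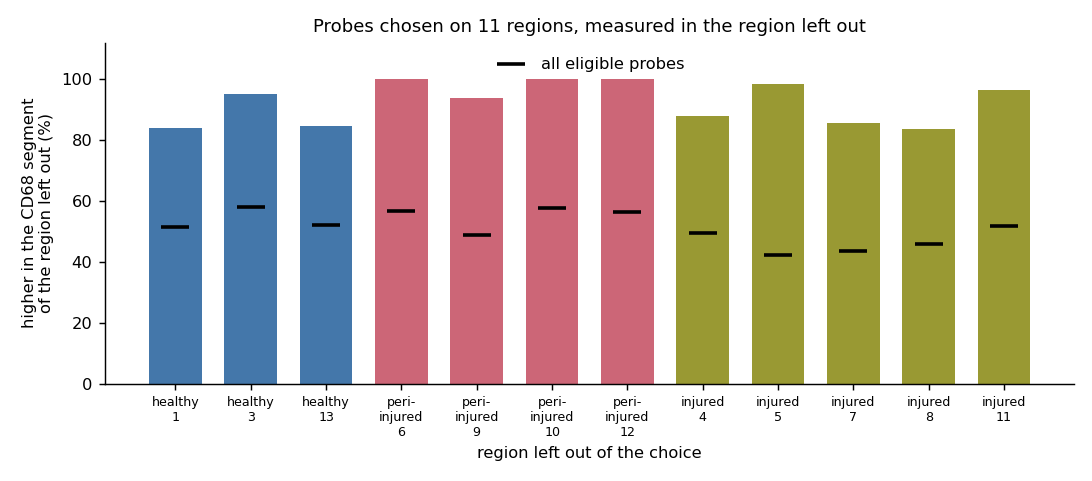
Bars give, for each region on the x axis, the percentage of probes chosen on the other 11 regions that were higher in the CD68 than in the non-immune segment of that region, and black marks give the same percentage over all eligible probes. Bars lie between 83.6% and 100%, and the black marks between 42.4% and 57.9%.

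Together, the 64 probes took 2.82% of all counts of the CD68 segments and 0.573% of those of the non-immune segments. In healthy CD68 segments, their summed share was 1.45%, 1.57% and 1.24% in regions 1, 3 and 13 (mean 1.42% ± 0.169, SD, n = 3). Peri-injured CD68 segments reached 4.79%, 4.07%, 5.31% and 3.53% in regions 6, 9, 10 and 12 (4.43% ± 0.784, SD, n = 4). For the injured class the values were 1.22%, 3.03%, 1.35%, 1.09% and 3.51% in regions 4, 5, 7, 8 and 11 (2.04% ± 1.14, SD, n = 5). All 4 peri-injured segments lay above the healthy ones. They also lay above the injured ones, but only barely, since peri-injured region 12 (95% Wilson interval 3.34% to 3.74%, counting error only) overlapped injured region 11 (3.39% to 3.63%). Injured regions 4, 7 and 8 overlapped the healthy range or lay just below it, and injured regions 5 and 11 lay above it.

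The non-immune segments of the same regions were lower and closer together. Their summed share was 0.427% to 0.492% in healthy, 0.477% to 0.939% in peri-injured and 0.367% to 0.567% in injured regions, and these ranges overlap between peri-injured and both other classes. The highest value, 0.939%, belonged to peri-injured region 10, where RTS0081477 alone held 1965 counts. Without the 5 probes with the most CD68 counts, of which it is one, the non-immune share was 0.540% in region 10 and 0.398% to 0.540% over the peri-injured regions, against 0.378% to 0.422% in healthy and 0.319% to 0.452% in injured ones. Within a region, the share in the CD68 segment was 2.90 to 3.22 times that in the non-immune segment in healthy regions, 5.66 to 8.00 times in peri-injured regions and 2.96 to 6.18 times in injured regions.

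**Figure D3:**
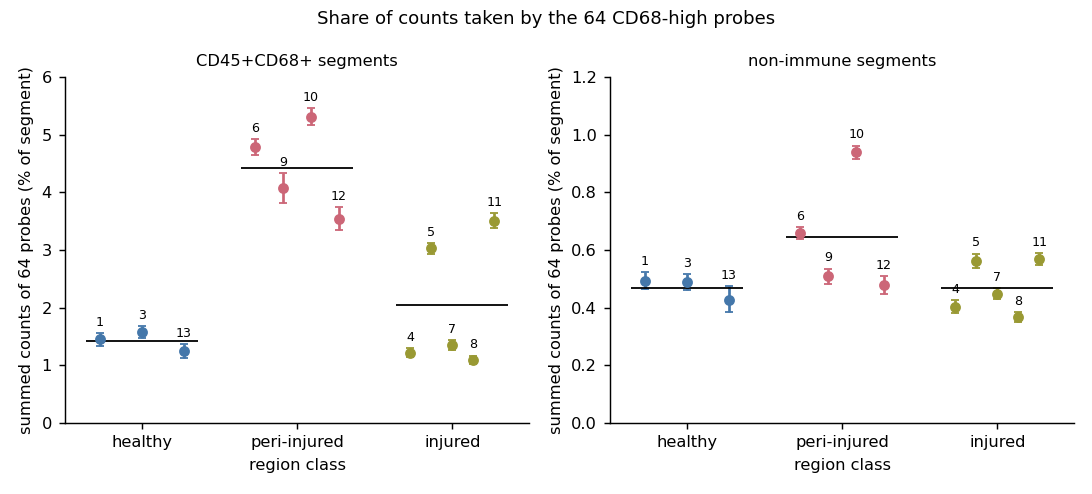
The summed share of the 64 probes in the counts of each CD68 segment (left) and non-immune segment (right) is plotted in percent by region class, with the region number above each point, 95% Wilson intervals and black lines for class means; the y axes differ in scale. The 4 peri-injured CD68 segments lie between 3.53% and 5.31%, and injured regions 5 (3.03%) and 11 (3.51%) lie apart from injured regions 4, 7 and 8 (1.09% to 1.35%).

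A few probes carried much of this share. The 5 largest, ranks 2, 40, 8, 23 and 1, held 37.2% of the CD68 counts of the 64. Without them, the other 59 probes still took 2.45% to 3.37% of the counts in peri-injured CD68 segments, against 0.961% to 1.29% in healthy and 0.775% to 1.87% in injured ones. The peri-injured segments stood above the rest more clearly over the 59 smaller probes. There the highest injured value, 1.87% in region 11, was below the lowest peri-injured one, 2.45% in region 9. The clearer gap depends on which probes were left out. Rank 2 alone held 22.2% and 25.7% of the counts of the 64 in injured CD68 segments 5 and 11. In peri-injured CD68 segments it held 5.05% to 9.74%, so leaving it out lowered those 2 injured segments more.

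Depth did not follow the same order. Total counts of CD68 segments were 35909 to 56172 in healthy, 21955 to 93567 in peri-injured and 71786 to 119493 in injured regions. Per 1000 units of area (the unit is not named in the worksheet), the 64 probes had 69.5 to 132 counts in healthy, 282 to 567 in peri-injured and 72.0 to 228 in injured CD68 segments, so the peri-injured segments were again the highest. The share of background counts, estimated from the average of 2018 probes that were lowest in the other compartment, did move with the class. It was 29.7% to 37.8% in healthy, 27.1% to 34.6% in peri-injured and 37.0% to 40.2% in injured CD68 segments. Its part in the differences between classes was not tested.

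Pooled over the regions of a class, the CD68 level was highest in the peri-injured class for 56 of the 64 probes (87.5%), beside 55.4% of the eligible probes. Among single segments, the highest CD68 level of a probe lay in peri-injured region 10 for 24 probes. Regions 6, 9 and 12 had the peak of 15, 10 and 5 probes, and 7 probes peaked in an injured and 3 in a healthy segment. Of the eligible probes, 55.8% peaked in a peri-injured, 19.8% in an injured and 24.3% in a healthy segment. The order of the classes in CD68 segments was peri-injured, injured, healthy for 30 probes and peri-injured, healthy, injured for 26. These orders held for 21.7% and 33.6% of the eligible probes. In the non-immune segments the peri-injured class was on top for 24 of the 64 (15 and 9 by the same orders). The same orders held there for 21.5% and 30.1% of the eligible probes. Of the 64, 25 were highest in the injured and 15 in the healthy class there. For eligible probes, the orders with injured on top held 14.8% and 13.9%, and those with healthy on top 10.5% and 9.19%.

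The classes were then compared within a compartment, a contrast that the rule did not use, although the counts are the same and the rule asked for a high CD68 level in every class. The 6000 probes with the largest mean share of CD68 counts were tested with edgeR's quasi-likelihood test after upper-quartile normalization, and a probe was called at a Benjamini-Hochberg adjusted p under 0.05 over the 6000. The 3 comparisons share segments, and each set of values is given for itself. Of the 64 probes, 30 were called in at least 1 of the 3 comparisons among CD68 segments and 34 in none. Over the 6000 probes 5.48% were called in at least 1 of them, and over the other eligible probes 13.2%.

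Between peri-injured and injured CD68 segments, 22 of the 64 were higher in peri-injured segments, 0 were lower and 42 did not pass the test. Over the 6000 probes, 3.07% were called higher and 1.35% lower, and among the 1818 eligible probes outside the list 8.14% were called higher. The log2 fold change had a median of 0.75 over the 64, -0.17 over the 6000 and 0.14 over the other eligible probes. It was above 0 in 54 of the 64, beside 40.8% of the 6000 and 56.7% of the other eligible probes. At an unadjusted p under 0.05, 35 of the 64 passed in either direction, beside 18.8% of the 6000 and 30.3% of the other eligible probes. The called probes rose by a median of 1.56 on the log2 scale (1.16 to 2.69). In 21 of the 64, the CPM of all 4 peri-injured segments lay above that of all 5 injured segments, beside 6.48% of the 6000 probes. In 0 of the 64 it lay below, beside 2.08%. Of the 1818 other eligible probes, 283 lay above and 55 below in this way. This comparison is within 1 mouse. The count rested in part on single regions and on depth, as 12 of the 64 were called without peri-injured region 6, 11 without peri-injured region 10, 14 without injured region 4 and 7 after every segment was thinned to 21955 counts, while 35 were called when all 20175 probes were tested. Over all probes tested, 0.467% were called higher after thinning and 2.14% without the filter. Of the 6000 probes, 184 were called higher in the main fit, 76 without peri-injured region 6 and 96 without peri-injured region 10. Without injured region 4 this count was also below 184. Leaving out any of these regions thus lowered the calls over all probes as well, and not only among the 64. In none of the fits named here was a probe of the list called lower.

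Between peri-injured and healthy CD68 segments, 20 of the 64 were higher in peri-injured segments, 0 were lower and 44 did not pass the test. Over the 6000 probes, 1.23% were called higher and 0.283% lower, and among the other eligible probes 2.86% were called higher. The median log2 fold change was 1.24 over the 64, 0.04 over the 6000 and 0.28 over the other eligible probes. It was above 0 in 60 of the 64, beside 52.7% of the 6000 and 66.4% of the other eligible probes. At an unadjusted p under 0.05, 43 of the 64 passed in either direction, beside 11.2% of the 6000 and 17.8% of the other eligible probes. The 20 called probes had log2 fold changes of 1.50 to 6.10. All peri-injured segments lay above all healthy ones in 37 of the 64 (6.23% of the 6000 probes) and below them in 0 (4.47%). Of the 1818 other eligible probes, these counts were 222 and 65. The p-values compare regions of 1 mouse with regions of another. Without healthy region 1, 9 of the 64 were called, without healthy region 13, 12, and without peri-injured region 6, 13. Of the 6000 probes, 74 were called higher in the main fit and 23, 36 and 49 in these fits, in the same order. Calls thus fell over all probes as well.

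Fewer of the 64 differed between injured and healthy CD68 segments. The test called 5 higher and 1 lower in injured segments, beside 0.283% and 0.433% of the 6000 probes, and 58 did not pass. The median log2 fold change was 0.45 over the 64, 0.21 over the 6000 and 0.19 over the other eligible probes. The median over the 6000 was 0.04 with TMM factors, under which that of the 64 was 0.29 and 4 were called higher and 1 lower. Only 4 of the 64 had injured segments that all lay above the healthy ones (2.35% of the 6000). In 2 of the 64, all injured segments lay below them (5.87%). Of the 1818 other eligible probes, these counts were 56 and 168. Leaving out healthy region 1, healthy region 3 or injured region 11 left 3 called probes. Of the 6000 probes, 17 were called higher and 26 lower in the main fit. In these fits 6, 10 and 15 were called higher and 16, 20 and 15 lower.

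**Figure D4:**
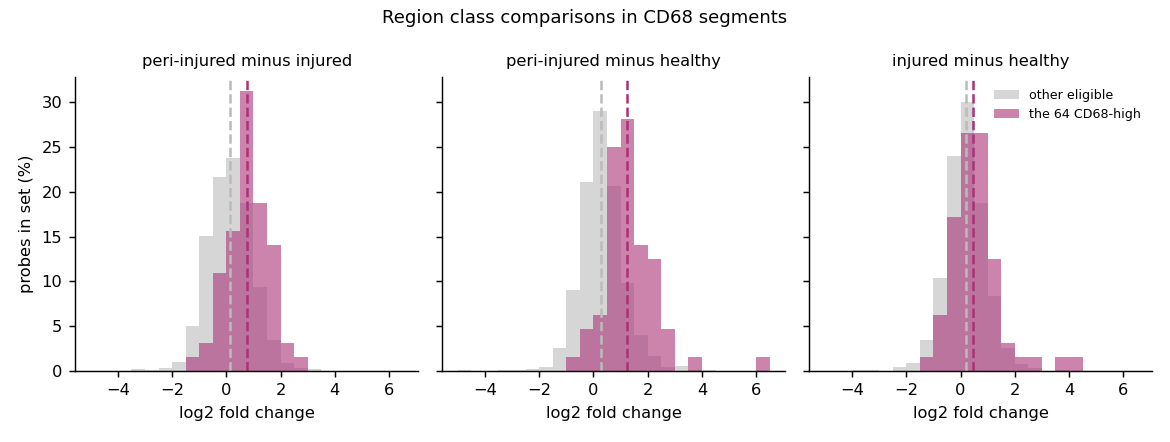
Histograms of the log2 fold change (x axis, edgeR) show, as a percentage of each set (y axis), the 64 CD68-high probes in purple and the other 1818 eligible probes in grey for the 3 comparisons among CD68 segments, with dashed lines at the medians. The purple median lies at 0.75 against 0.14 for peri-injured minus injured, at 1.24 against 0.28 for peri-injured minus healthy and at 0.45 against 0.19 for injured minus healthy.

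In the non-immune segments, calls among the 64 probes went in both directions. Between peri-injured and injured non-immune segments, 7 were called higher and 13 lower, beside 9.85% and 19.1% of the 6000 probes. The median log2 fold change was -0.31 over the 64 and -0.23 over the 6000. Over the 1818 other eligible probes, 19.1% were called higher and 15.7% lower, with a median of -0.0085. With TMM factors the split was 9 higher and 8 lower among the 64, beside 14.6% and 6.32% of the 6000. With DESeq2 it was 7 higher and 4 lower (16 of the 64 without an adjusted p), beside 11.0% and 3.3%. Without injured region 4 it was 6 higher and 12 lower. Groups did not overlap in 3 of the 64 with peri-injured segments higher (11.2% of the 6000) and in 3 with them lower (4.53%). Of the 1818 other eligible probes, these counts were 374 and 77. Against healthy non-immune segments, 2 of the 64 were higher and 2 lower in peri-injured segments (1.93% and 1.43% of the 6000). In injured segments, 2 were higher and 1 lower (0.5% and 1.73%). Over the other eligible probes the shares were 4.13% and 1.98% in peri-injured and 1.16% and 3.41% in injured segments. In these comparisons, all peri-injured segments lay above the healthy ones in 10 of the 64 (10.7% of the 6000) and below in 4 (5.02%). All injured segments lay above in 5 (5.13%) and below in 3 (6.75%). For the 1818 other eligible probes, these counts were 345, 74, 105 and 184 in the same order. Whether a change differed between the compartments was not tested, because that difference is built from the contrast that chose the probes.

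The compartments themselves, compared in 1 fit of all 24 segments with the same test, gave 63 of the 64 as higher in CD68 segments, beside 2.65% of the 6000 probes. The 1 not called was RTS0081477 (log2 fold change 1.81, SE 0.70, edgeR adjusted p = 0.0961), which 6 of 18 alternatives called. Since this contrast made the list, nothing is read from the count of 63. On simulated counts, the upper-quartile factor also left an offset between the compartments in this fit.

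RTS0064820 had the highest m, at 2.95, and 12 of 12 regions were higher in the CD68 segment. Its CD68 level was 458, 659 and 613 CPM in healthy regions 1, 3 and 13, and 2330, 2551, 2391 and 1756 CPM in peri-injured regions 6, 9, 10 and 12. In injured regions 4, 5, 7, 8 and 11 it was 554, 1138, 688, 390 and 2020 CPM. All peri-injured segments were above all healthy ones, while injured region 11 was above peri-injured region 12. In non-immune segments it stayed between 34.8 and 114 CPM in all 12 regions. Peri-injured against healthy, its log2 fold change in CD68 segments was 1.96 (SE 0.39, edgeR adjusted p = 0.00227), and the adjusted p over the alternatives ran from 4.4e-09 to 0.0543, the latter without healthy region 1. Against injured segments the log2 fold change was 0.92 (SE 0.31, edgeR adjusted p = 0.0831).

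RTS0064055 was second in m, at 2.88, and first in CD68 counts. Healthy CD68 segments had 596, 267 and 334 CPM in regions 1, 3 and 13, from 12 to 26 counts each. Peri-injured segments had 3356, 3963, 2681 and 2544 CPM in regions 6, 9, 10 and 12, and injured segments had 1499, 6712, 1025, 961 and 9019 CPM in regions 4, 5, 7, 8 and 11. Every segment of the injured mouse was thus above every healthy one, and the injured segments spanned the peri-injured range on both sides. With 802 counts in injured region 5 and 759 in region 11, these segments held most of its 1817 injured CD68 counts. Injured against healthy, the log2 fold change was 3.60 (SE 0.53, edgeR adjusted p = 2.7e-05, 6.9e-20 to 0.00186 over the alternatives), and peri-injured against healthy it was 2.97 (SE 0.53, edgeR adjusted p = 0.000678). Peri-injured against injured, it was -0.63 (SE 0.40, edgeR adjusted p = 0.397). In non-immune segments the probe was at 12.5 to 167 CPM, and there it was lower in peri-injured than in injured segments, with a log2 fold change of -1.29 (SE 0.27, edgeR adjusted p = 0.00116).

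RTS0064807, rank 5, had the largest called change between peri-injured and injured CD68 segments. It was at 3452, 3462, 3341 and 2483 CPM in peri-injured regions 6, 9, 10 and 12, and at 81.0, 452, 175, 139 and 1129 CPM in injured regions 4, 5, 7, 8 and 11. Healthy regions 1, 3 and 13 lay between most of these, at 504, 659 and 752 CPM. Peri-injured segments overlapped neither of the other classes, whereas injured region 11 was above all healthy segments and the other 4 injured segments were below them. The log2 fold change was 2.69 against injured (SE 0.38, edgeR adjusted p = 9.5e-06) and 2.32 against healthy segments (SE 0.46, edgeR adjusted p = 0.00207), and the probe was called in both comparisons under each of the 17 alternatives. In non-immune segments it was at 184 to 243 CPM in peri-injured and 57.2 to 120 CPM in injured regions, with a log2 fold change of 1.11 (SE 0.20, edgeR adjusted p = 0.000309).

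RTS0081477, rank 40, had the largest called change against healthy CD68 segments in both other classes. Healthy regions 1, 3 and 13 held 2, 4 and 3 counts, or 45.8, 71.2 and 83.5 CPM. Peri-injured regions 6, 9, 10 and 12 were at 4767, 4418, 7575 and 1393 CPM, and injured regions 4, 5, 7, 8 and 11 at 297, 3264, 243, 153 and 951 CPM. Both other classes lay wholly above the healthy one, and injured region 5 reached into the peri-injured range. Peri-injured against injured, the log2 fold change was 1.87 (SE 0.47, edgeR adjusted p = 0.0122). It was called in 14 of 17 alternatives, but not with DESeq2, without peri-injured region 10 or without injured region 4. Against healthy segments, the log2 fold change was 6.10 for peri-injured segments (SE 0.79, edgeR adjusted p = 2.3e-06). For injured segments it was 4.23 (SE 0.77, edgeR adjusted p = 0.000953). Both sizes rest on 9 healthy counts in all. The probe passed the minimum of counts over all CD68 segments through its 1267 peri-injured and 521 injured counts. Its healthy counts alone lay below that minimum, as did those of other probes of the list. Its non-immune level was also uneven, with 1965 counts (2927 CPM) in peri-injured region 10 and 572 CPM in region 6, against 78.6 and 124 CPM in peri-injured regions 9 and 12. Non-immune segments of healthy regions were at 12.5 to 44.1 CPM and of injured regions at 25.4 to 423 CPM. By the pooled difference in v, this probe was one of the 4 whose compartment difference was widest in the injured class (2.78, against 1.95 in the peri-injured class).

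RTS0068347, rank 19, was the 1 probe of the list called lower in injured than in healthy CD68 segments. Healthy regions 1, 3 and 13 were at 1192, 1139 and 362 CPM, and injured regions 4, 5, 7, 8 and 11 at 203, 377, 378, 125 and 285 CPM. Healthy region 13 fell among the injured segments. The log2 fold change was -1.38 (SE 0.35, edgeR adjusted p = 0.0427), and only 8 of 17 alternatives called it, with adjusted p from 0.000754 to 0.346. Without injured region 4 it was not called (log2 fold change -1.31, edgeR adjusted p = 0.136). In the non-immune segments the fall was clearer, from 294, 305 and 324 CPM in healthy regions to 63.8, 109, 102, 61.4 and 201 CPM in injured ones, without overlap (log2 fold change -1.39, SE 0.26, edgeR adjusted p = 0.00174). Peri-injured non-immune segments, at up to 109 CPM, were also below the healthy ones (log2 fold change -1.84, SE 0.28, edgeR adjusted p = 7.2e-05). In non-immune segments this probe was thus lower in both classes of the injured mouse, while its fall in injured CD68 segments depended on the fit.

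**Figure D5:**
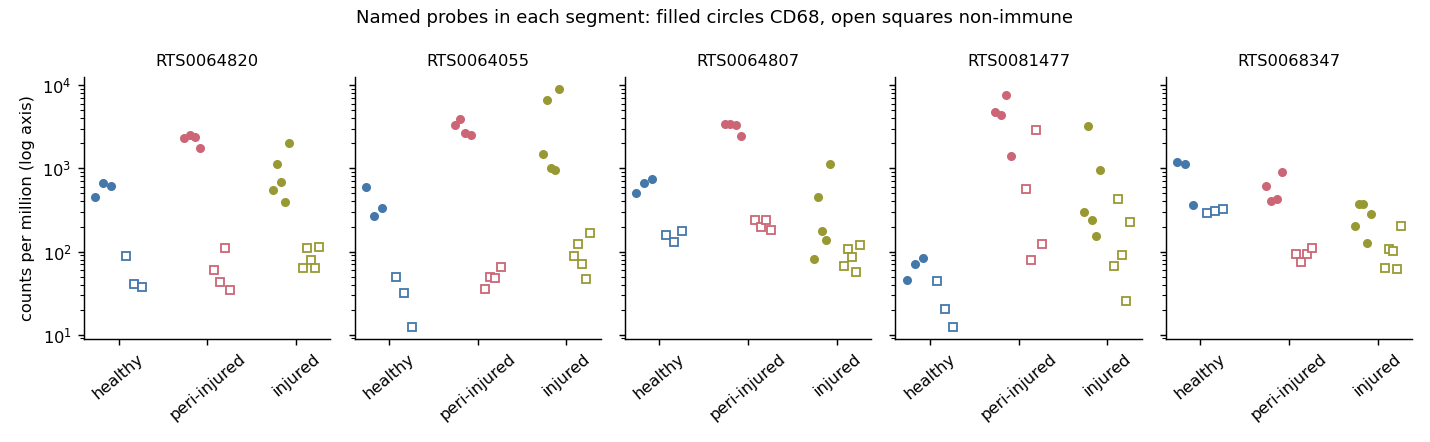
For 5 probes, CPM in each segment is plotted on a log axis by region class, with filled circles for CD68 and open squares for non-immune segments, 1 point per region. RTS0064807 forms a tight peri-injured group at 2483 to 3462 CPM above both other classes, while RTS0081477 in non-immune segments reaches 2927 CPM in a peri-injured segment.

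Rank 28, the smallest called rise against injured segments, was at 303 to 385 CPM in peri-injured and 67.5 to 190 CPM in injured CD68 segments, from 5 to 36 counts each (log2 fold change 1.16, SE 0.35, edgeR adjusted p = 0.0447, called in 8 of 17 alternatives and not without injured region 4). Rank 29, the smallest called rise against healthy segments, was at 878 to 1933 CPM in peri-injured and 362 to 665 CPM in healthy CD68 segments (log2 fold change 1.50, SE 0.39, edgeR adjusted p = 0.0281, called in 10 of 17 alternatives). Both had CD68 segments without overlap in these comparisons. The median standard error over the 64 was 0.37 for peri-injured against injured and 0.47 for peri-injured against healthy CD68 segments.

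Across the 12 CD68 segments, the levels of the 64 probes moved together more than those of other probes. The median Pearson correlation between pairs of the 64 was 0.55 in v, and 0.39 after class means were taken out, against 0.055 and 0.030 for pairs of eligible probes. All pairs share the segments, their depth and their background share, and the 64 are more abundant than most, so these values are a description.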

How the data were processed

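The authors processed GeoMx Mouse Whole Transcriptome Atlas reads to deduplicated probe counts with the GeoMx NGS Pipeline (version 2.3.4 per the file headers), and the deposited counts are neither normalized nor filtered. All 24 segments and the reaction without tissue were sequenced in 1 run. A probe without an entry was read as 0. The 64 probes and every comparison were chosen with earlier results of these data known. The rule allows 100 probes, but 64 reached an m of 0.7.

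The limit of quantitation used in the study could not be computed without named negative probes, so tests covered the 6000 probes with the largest mean share of CD68 counts, with 1 mean per class over the 12 segments of a compartment (edgeR 4.0.16 in R 4.3.3, upper quartile). The standard error is the log2 fold change over the square root of F. In CD68 segments the upper quartile was only 3 to 10 counts, which makes this factor coarse. Named probes were the 2 with the highest m and the highest and lowest called change in each CD68 comparison. Alternatives were TMM factors, DESeq2 1.42.0, limma 3.58.1 on log2 of normalized counts plus 1, no filter, thinning and each region left out. Region numbers pair CD68 and non-immune segments, which were cut from 1 place in the section. Their deviations from group means correlated between -0.0025 and 0.132 (median 0.055, 12 pairs, 2 above 0.1). The fits were tested on simulated counts, where the upper-quartile factor left an offset between compartments in the joint fit of all segments. In a check for duplicates, the lowest chi-square per degree of freedom between segments of a group was 1.06 over 38 pairs. Sampling noise alone gives a value near 1. Whether the closest pair differed by more than this noise was not tested.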

Additional observations from a re-analysis of the deposited data

Results flagged for a closer look

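In 42 groups of 4 or 5 segments, 3 values stood apart from the rest of their group by Dixon's criterion, where chance gives about 1 in 20. RTS0064807 was at 2483 CPM in the CD68 segment of peri-injured region 12 and at 3341 to 3462 CPM in the other 3 peri-injured segments. All 4 were above every healthy and injured segment.

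RTS0081477 was at 3264 CPM in the CD68 segment of injured region 5 and at 153 to 951 CPM in the other 4 injured segments. The share of background counts was 34.6% in the CD68 segment of peri-injured region 9, the shallowest of all segments, and 27.1% to 28.1% in the other 3 peri-injured segments. What sets these segments apart was not tested.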

How the results depend on the processing

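Calls among the 64 probes depended on depth, the probes tested and single regions, and the cause was not tested beyond fewer counts or more probes in these fits. Calls over all probes moved in the same fits. Between peri-injured and injured CD68 segments, 184 of the 6000 were called higher, 28 after thinning and 76 to 236 with 1 region left out. Without a filter, 432 of 20175 were called higher. Peri-injured against injured CD68 segments, 22 were called, 35 without a filter on low counts, 7 after thinning and 11 to 26 with 1 region left out, with counts of 11, 12 and 14 without peri-injured regions 10 and 6 and injured region 4. Of the 22, 10 were called with each of 9 regions left out, and 5 under all alternatives. Peri-injured against healthy, 20 were called and 9 to 25 with a region left out (9, 12 and 13 without healthy regions 1 and 13 and peri-injured region 6), and injured against healthy, 6 and 3 to 5. Of the 6000 probes, 74 were called higher in peri-injured than in healthy segments, and 23 to 106 with a region left out. In injured segments, 17 were called higher than in healthy ones, and 6 to 18 with a region left out. DESeq2 gave no adjusted p for 2 or 3 of the 64 in these fits. In non-immune segments, the 20 calls between peri-injured and injured became 11 with DESeq2, 11 with limma, 12 without a filter and 6 after thinning, and 14 to 22 with a region left out. Of the 6000 probes there, 591 called higher and 1147 lower became 662 and 198 with DESeq2. They became 369 and 402 with limma and 161 and 67 after thinning. In the same segments, 4 calls for peri-injured against healthy became 7 without a filter and 4 to 7 with a region left out (7 without peri-injured region 12), and 3 for injured against healthy became 5 with limma, 1 without a filter, 1 after thinning and 1 to 3 with a region left out (1 without healthy region 3 or 13). Of the 6000 probes, 116 called higher and 86 lower in peri-injured than in healthy segments became 140 and 91 without peri-injured region 12. For injured against healthy, 30 and 104 became 122 and 129 with limma and 11 and 42 after thinning.

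The region as a replicate block in the comparison of compartments gave 64 calls among the 64 probes in place of 63, and class comparisons have 1 segment per region and compartment, so that it was fitted for no other comparison. After thinning 41 were called there, and with a region left out 57 to 64. Of the 6000 probes, 159 were called higher in CD68 segments in the main fit, 49 after thinning and 108 to 169 with a region left out. Of the 64 probes, 26 were also chosen with a pseudocount of 80 in the rule, 64 with 5, 51 with at least 120 counts, 51 with upper-quartile scaling, 48 with the mean over regions and 52 to 64 with a region left out. After thinning, 12 in place of 35 were higher in CD68 segments in all 12 regions, and 31 with TMM factors. Of 155 single results of named probes under alternatives, 127 stayed called, 28 did not and 0 changed direction. Class scaling moved the median log2 fold change of all probes between injured and healthy CD68 segments from 0.21 to 0.04 (TMM). The median of the 64 went from 0.45 to 0.29 there. CD68 segments had an upper quartile of 3 to 10 counts.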

Other observations

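Identifiers of the 64 probes lay close to each other in number. Of the 64, 23 had another of the 64 within 10 identifier numbers, beside 11 of the 64 probes that came next in m, over a span of 20751 numbers for all probes. How identifiers were assigned is not given in the sources used here, and no test was made.

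RTS0064807 and RTS0081477 both rose in peri-injured CD68 segments, but their levels in the non-immune segments of those regions differed in evenness. The rise against injured CD68 segments was called in all 17 alternatives for RTS0064807 and in 14 for RTS0081477. RTS0064807 stayed at 184 to 243 CPM in the 4 non-immune segments, while RTS0081477 ran from 78.6 to 2927 CPM. Between peri-injured and injured non-immune segments, the log2 fold change of RTS0081477 was 2.34 (SE 0.62, edgeR adjusted p = 0.007) and it was called in 14 of 17 alternatives. It was 0.55 without peri-injured region 10 (edgeR adjusted p = 0.406), and it was also not called with DESeq2 (adjusted p = 0.0919) or limma (adjusted p = 0.205).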
